A study of Drosophila melanogaster with 26 samples.

Results

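RNA of larval fat body was compared between flies that carry the cg driver and flies that carry the r4 driver, both raised on food with 0.7 M sucrose (the high-sugar diet). Libraries were chosen by diet, male parent and driver as the labels give them, which left 9 of 26 libraries, 6 of cg (replicates 19, 20, 21, 52, 53 and 54) and 3 of r4 (61, 62 and 63). All larvae were wandering females at the end of larval life. Their fathers came from the w1118 control stock of the Vienna collection (stock number 60000). Their mothers were virgins of a stock with UAS-Dcr2 on the X chromosome and either cg-GAL4 or r4-GAL4, so each group carries a GAL4 driver and a Dicer-2 transgene, and neither carries an RNA interference line. Such offspring were bred as controls for RNA interference lines. For comparison values are given for the same cg and r4 crosses on control food with 0.15 M sucrose (6 and 3 libraries), and larvae of r4-GAL4 and UAS-Dcr2 mothers whose fathers came from another Vienna stock, 60100 (4 libraries on each diet). The fat body was dissected out or sheared and spun down, and RNA was sequenced after ribosomal RNA had been removed. The labels do not say which larvae were pooled or whether replicates were separate cultures, so p-values measure the spread between these libraries, which may be technical.

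The larval fat body does the work of liver and adipose tissue. It takes up dietary sugar, makes triglyceride, glycogen and trehalose, and secretes storage proteins, lipoproteins, hormones and antimicrobial peptides into the haemolymph. GAL4 lines switch on a transgene in chosen cells by way of UAS sites. The cg driver holds control sequence that the collagen IV genes Cg25C and vkg share and is active in fat body and haemocytes, and the r4 driver is active mainly in fat body.

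Values are given as multiples of a library's upper quartile, after every library was rescaled to a common upper quartile. The quartile (the 75th percentile) was taken over the 10094 features above 0 in any library. Of 14659 features, 2656 with a mean of at least 1 over all 26 libraries were tested. Replicate numbers fall into sets, and each set holds 1 driver. Libraries 19 to 21 and libraries 52 to 54 are separate cg sets, and 61 to 63 are the r4 set, so driver and set cannot be told apart. A difference was called when limma's adjusted p was under 0.05 and both cg sets lay on the same side of r4. The cg sets were also compared with each other. Within these 9 libraries this is the only measure of differences between sets without a change of driver.

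Markers of fat body were high in every library, with summed values of 7357 to 8980 in libraries 19 to 21, 14296 to 16955 in libraries 52 to 54 and 12062 to 14118 in r4. Markers of other tissues split the cg sets. The 6 salivary glue genes summed to 2804 to 6263 in libraries 19 to 21, 7.60 to 25.3 in libraries 52 to 54 and 122 to 159 in r4. The 10 midgut markers summed to 11.3 to 85.0, 0.645 to 1.36 and 1.45 to 4.56 in the same order, with Amy-p and lambdaTry at 0 in all 9 libraries. The 7 cuticle markers summed to 21.9 to 66.1, then 0 to 0.427, then 8.59 to 28.99, with 3 of them (Acp65Aa, Edg78E and Edg84A) at 0 throughout. The 8 muscle markers summed to 3.94 to 9.65 in cg and 13.2 to 15.2 in r4. None of the salivary, midgut and cuticle genes tested (6, 7 and 4) was called between the drivers. The part of these tissues in other differences was not tested.

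On high sugar 1133 of 2656 genes (42.7%) differed between the drivers, 386 (14.5%) higher in cg and 747 (28.1%) lower. Of 12 tested genes of the mitochondrial genome 11 were higher in cg, of 22 on chromosome 4 18 were, and so were the storage protein Lsp1alpha and the lipoprotein Rfabg. Of 20 proteasome subunits 16 were lower in cg, as were CG14752, PGRP-SC2, 7B2 and inx7, which were close to 0 there. Of the calls, 125 higher and 230 lower exceeded 1 log2 unit. In 856 calls the 6 cg and 3 r4 libraries did not overlap, against 965 of all genes tested (36.3%). The median difference over all genes tested was -0.13 log2 units, against -0.03 on the scale as deposited and -0.06 with median-of-ratios scaling, so calls higher in cg made up 34.1%, 40.8% and 39.8% of all calls on these scales. In bulk tissue, fewer cells of a type and less RNA per cell cannot be told apart.

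The cg sets differed from each other about as much as from r4. Libraries 19 to 21 against libraries 52 to 54 gave 1419 genes (53.4%), with a median absolute difference of 0.47 log2 units over all genes tested. Against r4, libraries 19 to 21 gave 1701 genes (64.0%, median 0.66) and libraries 52 to 54 gave 995 (37.5%, median 0.35). In the plot of the cg sets against r4 the salivary genes lie at high values of one axis and low values of the other, while the mitochondrial genes lie near the diagonal. For 617 of the 1133 calls, 259 higher and 358 lower, the nearer cg set was further from r4 than the cg sets were from each other. Over all 2656 genes tested this held for 873. As calls were chosen for lying away from r4, the 617 is a description. With the library set as a correlated block (estimated correlation 0.3628) 567 genes (21.3%) were called. With each cg set required to pass on its own 723 (27.2%) were called, and without r4 replicate 63, 705 were. Over all genes tested, 393 of 2656 were lower and 174 higher with the block. Without r4 replicate 63, 461 of 2666 were lower and 244 higher. With libraries 52 to 54 as the only cg libraries 379 of 2636 were lower and 319 higher. The counts given below for single lists in these fits stand against these shares. Counts of lists in the main fit stand against 28.1% lower and 14.5% higher. Among others, the lower calls in the glycolysis, heat shock, actin, odorant-binding protein and ecdysone lists did not exceed 28.1%.

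**Figure D1:**
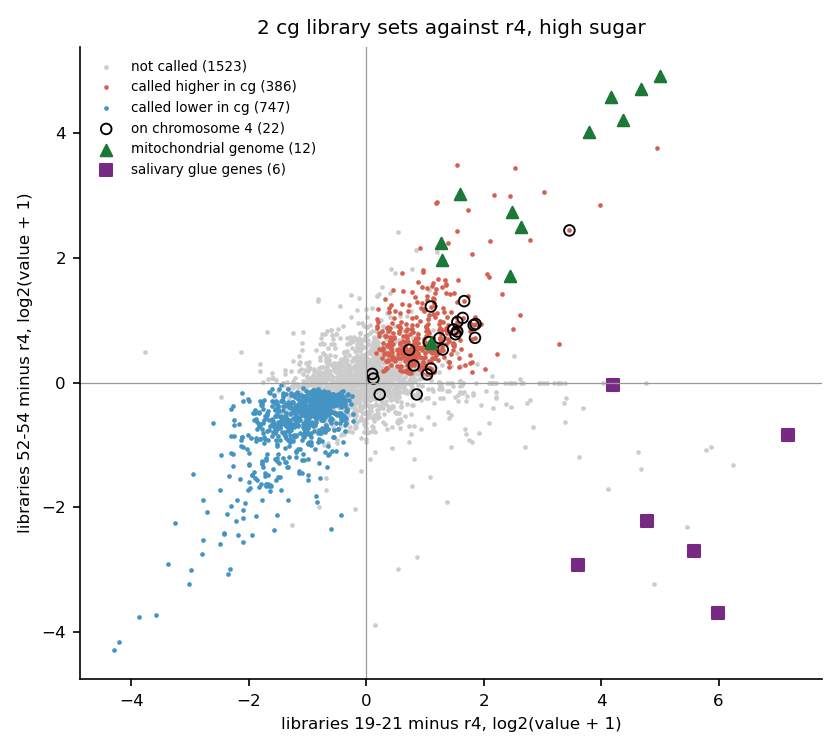
Each point is 1 of the 2656 genes tested, with the difference from r4 in libraries 19 to 21 on the horizontal axis and in libraries 52 to 54 on the vertical axis, both in log2(value + 1). The 12 mitochondrial genes lie far up and right, the chromosome 4 genes mostly up and right, and the 6 salivary glue genes far right and at or below 0.

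The checks of the genotype came first. Dcr-2, the gene of the transgene that both drivers switch on, stood at 18.7 at the lowest, 21.1 at the median and 36.3 at the highest in cg, and at 26.6, 20.7 and 9.72 in r4. These ranges overlap, and the difference of 0.39 ± 0.38 log2 units (SE) missed the threshold (limma adjusted p = 0.417). The level was 78.8 in cg and 42.3 in r4 on the control diet, and 4.44 to 18.6 in larvae from the 60100 stock with the r4 driver on high sugar. Collagen IV did not pass either. Cg25C stood at 1.33 to 1.73 in libraries 19 to 21, 5.18 to 7.50 in libraries 52 to 54 and 4.96 to 6.56 in r4 (-0.59 ± 0.39, limma adjusted p = 0.216). For vkg the difference was -0.14 (limma adjusted p = 0.608). Yp1 and Yp2, yolk proteins of adult females, were listed at 0 in all 9 libraries.

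A further check was white, an eye pigment transporter that w1118 flies lack and that inserted transgenes often carry as a marker. It separated the groups. It ranged from 0.0813 to 0.345 in cg, with a median of 0.216, and stood at 2.32, 2.65 and 2.31 in r4. No library of one group reached the other. The difference was -1.49 ± 0.13 log2 units (limma adjusted p = 3.91e-09), or 11.1-fold in the means. On high sugar the 60100 larvae with r4 held 3.24 to 4.27. Of the other eye pigment genes tested, only pr, an enzyme of pterin synthesis, was called (1.07 ± 0.30, limma adjusted p = 0.00683, 0.0515 without r4 replicate 63 and 0.0565 with the set as a block).

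RNA of the mitochondrial genome, which encodes 13 subunits of the respiratory chain and ATP synthase, formed the clearest group. Summed over these 13 genes, cg libraries held 954 to 1875 and r4 libraries 116 to 349. This was 1.86 to 3.91% of the summed values of a cg library and 0.167 to 0.537% of those of an r4 library. Of 12 genes tested, 11 were higher in cg and 0 lower, with a median of 2.59 log2 units against -0.13 over all genes tested. The list was added after values had been seen. All 11 calls held with the set as a block, and 11 or 12 genes were called after every other scaling of the libraries. The sum was 1366 to 1995 in cg and 26.6 to 47.2 in r4 on the control diet, and 10.9 to 63.3 in the 60100 larvae with r4 on high sugar, as the plot of mitochondrially encoded RNA in every library shows.

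**Figure D2:**
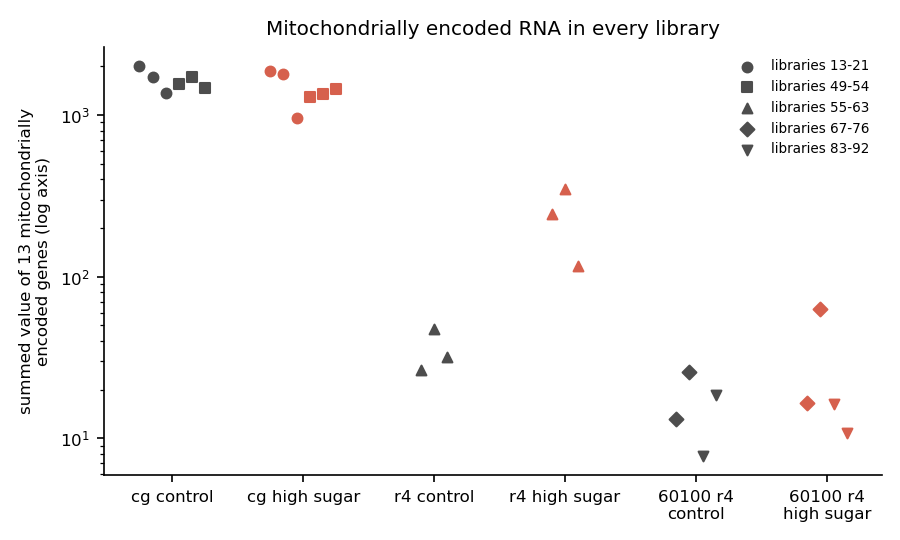
The summed value of 13 mitochondrially encoded genes (log axis) in each of the 26 libraries, by group and library set. All cg libraries of both diets lie at or above 954, and all r4 libraries at or below 349.

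Among subunits of cytochrome c oxidase, CoIII stood at 358 at the lowest, 461 at the median and 529 at the highest in cg, against 20.02, 35.7 and 2.93 in r4. The groups were far apart, at 4.97 ± 0.54 log2 units (limma adjusted p = 3.10e-07). CoI ranged from 263 to 604 around a median of 409, against 81.8, 101 and 43.6 (2.57 ± 0.29, limma adjusted p = 4.87e-07). CoII was the one tested gene without a call. It ranged from 163 to 285 in cg and stood at 127, 179 and 59.3 in r4, so the groups overlapped (0.87 ± 0.37, limma adjusted p = 0.0638, and 1.21, adjusted p = 0.0295, without r4 replicate 62). It was also called on the scale as deposited (1.02, adjusted p = 0.0491) and after quantile normalization (0.97, adjusted p = 0.0327).

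Cyt-b, a subunit of complex III, ranged from 57.8 to 193 in cg with a median of 132, and stood at 3.85, 9.48 and 1.27 in r4. The lowest cg library was thus well above the highest r4 library (4.70 ± 0.40, limma adjusted p = 3.91e-09). Of the complex I subunits, ND4 had a median of 30.7 in cg, from 16.4 to 52.2, and 0.295, 1.35 and 0.508 in r4. This was 4.30 ± 0.24 log2 units (limma adjusted p = 7.34e-12), a 47.0-fold difference in the means. ND1 and ND5 differed by 3.91 and 2.61, ND2 by 2.31 and ND3 by 2.09 log2 units. ND4L was listed at 0 in all r4 libraries and at 1.29 to 5.17 in cg. ATPase6, a subunit of ATP synthase, ranged from 25.9 to 88.2 in cg and stood at 1.37, 5.15 and 1.53 in r4 (4.37 ± 0.37, limma adjusted p = 4.57e-09). ATPase8, a small subunit of the same enzyme, was at 0 in all r4 libraries and at 0.930 to 3.19 in cg. ND6 was too low to test, at 0.270 to 3.59 in cg and 0, 0 and 1.32 in r4.

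Subunits of the same complexes that are encoded in the nucleus went the other way on high sugar. Of 20 tested, 11 were lower in cg and 1 higher, with a median of -0.57 log2 units. On the control diet 5 of the 20 were higher in cg and 5 lower, with a median of -0.04. RFeSP, the Rieske iron-sulfur protein of complex III, differed by -1.41 ± 0.24 (limma adjusted p = 0.000126). ATPsyn-Cf6 and ATPsyn-gamma, subunits of ATP synthase, differed by -0.84 and -1.097. The gene that was higher was ATPsyn-beta, which lies on chromosome 4 (0.86 ± 0.28, limma adjusted p = 0.0165, and 0.121 with the set as a block). With the block 4 of the 20 were called lower and 0 higher, without r4 replicate 63 also 4 were lower, and with libraries 52 to 54 as the only cg libraries 2 were. Those 2 of 20 did not exceed the share over all genes in that fit, 379 lower of 2636.

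Chromosome 4, the small and largely heterochromatic autosome, held another group, noticed after values had been seen. Of 22 tested genes 18 (81.8%) were higher in cg and 0 lower, with a median of 1.06 log2 units. Several, such as PMCA, Ank and cals, had means under 1 in every r4 group of both diets and passed the filter only through cg. As members admitted by the group where they are high had to differ, counts of the filtered genes are a description. On the other arms 9.47% (X) to 16.3% (2R) of the genes were higher, with medians from -0.24 on X to -0.04 on 3L. The chromosome 4 median was 1.27 in libraries 19 to 21 and 0.72 in libraries 52 to 54. With no filter 41 of 69 were higher and 0 lower, with a median of 0.40. Over all genes in that fit 1158 of 10094 were higher and 1145 lower. The count was 14 with the set as a block, and on the control diet all 22 were higher in cg. Counts after other scalings were 14 of 19 on the scale as deposited, 15 of 19 with median-of-ratios scaling and 18 of 22 with quantile normalization.

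The strongest of these was Rfabg, which encodes the precursor of the apolipophorins that carry lipid in haemolymph. It ranged from 48.5 to 173 in cg with a median of 98.7, and stood at 18.2, 14.4 and 5.75 in r4 (2.95 ± 0.50, limma adjusted p = 0.0001). Libraries 19 to 21, at 96.0 to 173, lay mostly above libraries 52 to 54, at 48.5 to 101, and both sets lay above r4. The 60100 larvae with r4 held 0.835 to 3.44. CaMKI, a calmodulin-dependent kinase, ranged from 21.3 to 33.4 in cg against 10.8, 9.32 and 6.27 in r4 (1.49 ± 0.28, limma adjusted p = 0.000327). PMCA, a plasma membrane calcium pump, differed by 1.40 ± 0.23 and eIF4G, a scaffold of translation initiation, by 1.17 ± 0.24. The genes without a call were Arf102F, CG1970, CG11077 and RpS3A, at 0.34, 0.12, 0.09 and 0.02 log2 units.

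**Figure D3:**
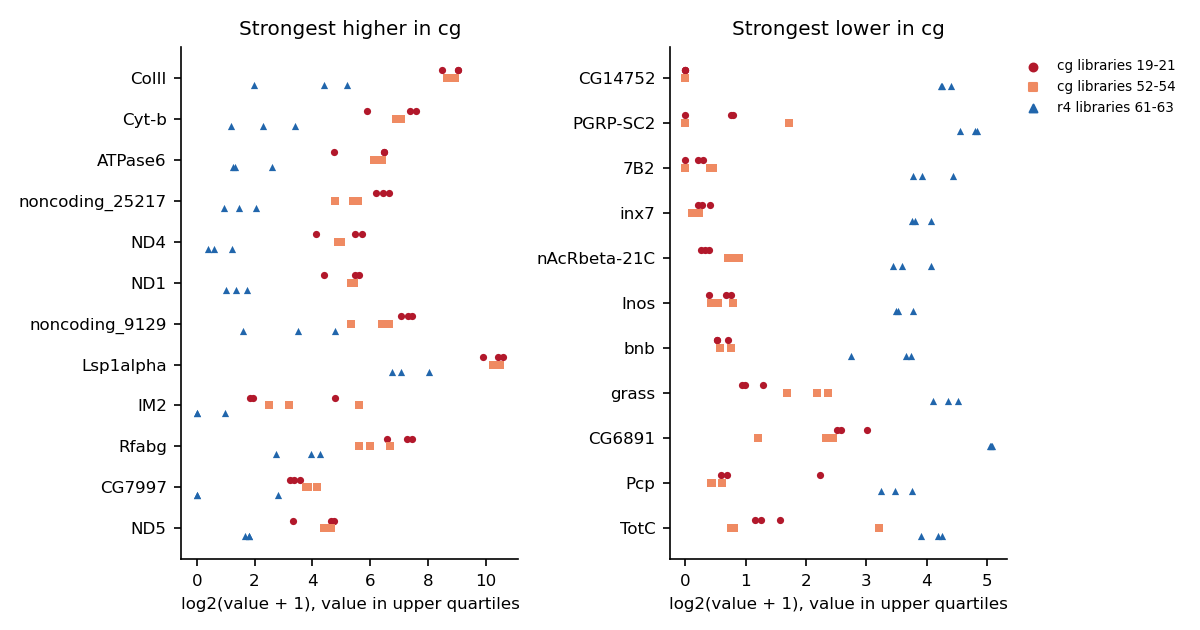
Values of the 9 libraries, as log2(value + 1), for 12 genes higher and 11 lower in cg, of those with the largest differences among calls with a group mean of at least 5 and no overlap. In the left panel every cg library lies to the right of every r4 library, and in the right panel to the left.

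Other strong genes higher in cg included a storage protein and immune genes. Lsp1alpha, a larval serum protein that fat body secretes for use at metamorphosis, stood at 956 at the lowest, 1320 at the median and 1560 at the highest in cg, and at 133, 264 and 107 in r4. Both cg sets lay above r4 by the same amount, at 3.03 and 3.06 log2 units, and the difference was 3.04 ± 0.44 (limma adjusted p = 1.35e-05), or 7.77-fold. The 60100 larvae with r4 held 221 to 634. Its relatives did not pass: Lsp1beta differed by 0.07 (limma adjusted p = 0.881) and Lsp1gamma by 0.82 (limma adjusted p = 0.209), and reads of the 3 similar genes could have been divided between them in counting. Fbp2, a relative of alcohol dehydrogenase, was lower in cg, at 1072 to 2443 against 2798, 3594 and 3681 (-1.04 ± 0.21, limma adjusted p = 0.000585). Lsp2, another serum protein, stood at 1375 to 1905 in libraries 19 to 21, 4232 to 5191 in libraries 52 to 54 and 4610, 4789 and 5719 in r4. Its call at -0.86 ± 0.30 (limma adjusted p = 0.0261) thus came from libraries 19 to 21, and after quantile normalization it was 0.17 (adjusted p = 0.625). Its call was also lost without r4 replicate 62 or 63, or any 1 library of 19 to 21 (adjusted p from 0.0580 to 0.114).

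Antimicrobial peptides, secreted on activation of the Toll and Imd pathways, were called only upward. Of the 19 measured, 13 passed the filter on low values, 4 of them only through the level in cg replicate 53, and 9 were called higher and 0 lower. As members admitted by the group where they are high had to differ, this count is a description. Their summed value was 108 to 756 in cg and 32.4 to 76.5 in r4. Drs (Drosomycin), a target of Toll, ranged from 47.8 to 139 in cg with a median of 74.8, and stood at 26.8, 13.1 and 23.2 in r4 (1.91 ± 0.45, limma adjusted p = 0.00216). AttC (Attacin-C) ranged from 3.50 to 63.5, against 0.657, 1.38 and 1.67 (1.99 ± 0.54, limma adjusted p = 0.00541). Replicate 53 held that highest value, while the other cg libraries were at 3.50 to 9.09. CecA1 and CecC (cecropins) were at 0 in all r4 libraries and reached 35.7 in replicate 53, but cg replicate 54 was at 0 in both and replicate 20 in CecA1. AttA and AttB, and CecA1 and CecA2, are near-identical copies, so the division of reads between them is uncertain.

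These immune calls were less stable than the mitochondrial ones. With the set as a block 1 of the 13 peptides was called, and in a fit on the 9 libraries alone 1 of 14 tested. Counts were 6 without cg replicate 21, 6 of 9 tested without cg replicate 53, and 6, 5 and 6 without r4 replicates 61, 62 and 63. Among the Bomanins and other immune-induced peptides, 3 of 10 were higher and 2 lower. IM2 (BomS2) ranged from 2.62 to 47.6 in cg against 0.989, 0 and 0 (2.99 ± 0.81, limma adjusted p = 0.00547), and IM1 (BomS1) from 1.33 to 38.2 against 0 in all r4 libraries. CG15068 (BomS6) was lower, at 1.59 to 6.98 against 11.4, 11.3 and 9.96 (-1.45 ± 0.38, limma adjusted p = 0.00408), as was CG16836 (BomT2, -1.39). With the block none of the 5 was called (adjusted p from 0.0678 to 0.0983 for the 4 named here).

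Genes that were near 0 in cg and well above it in r4 made up most of the strongest lower calls. CG14752 was at 0 in all 6 cg libraries and at 20.1, 18.1 and 17.8 in r4 (-4.29 ± 0.24 on the log2(value + 1) scale, limma adjusted p = 7.34e-12), and at 77.4 to 93.0 in the 60100 larvae with r4. PGRP-SC2, an amidase that degrades peptidoglycan, ranged from 0 to 2.29 in cg, with a median of 0.347, and stood at 27.6, 26.7 and 22.5 in r4 (-4.19 ± 0.49, limma adjusted p = 1.00e-06). Its levels in r4 were 41.5-fold those in cg by the means. 7B2, which encodes a cofactor of a prohormone convertase, ranged from 0 to 0.372, against 12.6, 20.7 and 14.1 (-3.81 ± 0.23, limma adjusted p = 1.11e-11).

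The gap junction gene inx7 ranged from 0.0792 to 0.321 in cg and stood at 12.9, 15.8 and 12.5 in r4 (-3.65 ± 0.21, limma adjusted p = 7.34e-12). The nicotinic acetylcholine receptor subunit nAcRbeta-21C ranged from 0.199 to 0.856 against 9.84, 15.8 and 11.01 (-3.14 ± 0.21, limma adjusted p = 8.77e-11). Both are membrane proteins best known from neurons and epithelia, and every cg library was below every r4 library by a wide margin. Inos, the enzyme of inositol synthesis, ranged from 0.304 to 0.720 against 10.5, 12.6 and 10.2 (a difference of -2.999 ± 0.28 log2 units, limma adjusted p = 2.74e-08).

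Lower calls with immune or stress roles were grass, a protease upstream of Toll (0.918 to 4.15 in cg, 16.3, 19.5 and 21.97 in r4, -2.75 ± 0.30), and TotC, a stress-induced humoral peptide. TotC ranged from 0.686 to 8.28 around a median of 1.302 and stood at 17.97, 14 and 17.1 in r4 (-2.65 ± 0.69, limma adjusted p = 0.00396, and 0.0786 with the block). On the control diet the difference did not pass (-0.02, limma adjusted p = 0.985). Pcp, a pupal cuticle gene within an intron of the purine synthesis gene ade3, ranged from 0.337 to 3.71 against 8.43, 12.5 and 10.1 (-2.66 ± 0.34, limma adjusted p = 3.52e-06). As ade3 differed too (-1.59) and the sources do not say that counting used strand, their reads cannot be told apart. The remaining strong lower calls were bnb (-2.77 ± 0.37) and CG6891 (-2.72 ± 0.35). A further 6 called genes were listed at 0 in all cg libraries, among them the protease gene Ser7 (4.12, 5.03 and 3.92 in r4), CG34194 (3.76, 5.94 and 3.66), CG13840 and Victoria, a relative of TotC (3.08, 4.41 and 3.61).

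The remaining strong genes higher in cg were CG7997 and a pair of noncoding features. CG7997 ranged from 8.42 to 17.01 in cg and stood at 0.0025, 0.00355 and 5.99 in r4. Only replicate 63 of r4 thus held a level near that of cg, and the difference was 2.73 ± 0.38 (limma adjusted p = 1.06e-05). The feature noncoding_25217 ranged from 26.5 to 99.7 in cg and stood at 1.76, 3.18 and 0.914 in r4 (4.36 ± 0.52, limma adjusted p = 1.23e-06). The feature noncoding_9129 ranged from 39.3 to 173 against 2.01, 10.3 and 26.8 (3.41 ± 0.73, limma adjusted p = 0.000891).

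Subunits of the proteasome were mostly lower in cg. In this complex, which degrades ubiquitinated proteins, 16 of 20 tested subunits were lower and 0 higher, with a median of -0.83 log2 units. Pros26_4 (Rpt2), an ATPase of the regulatory particle, stood at 2.29 to 7.48 in cg against 13.1, 13.9 and 16.5 (-1.57 ± 0.29, limma adjusted p = 0.000207). Pros35, a subunit of the core, stood at 5.70 to 7.20 against 11.5, 12.6 and 15.3 (-0.89 ± 0.16, limma adjusted p = 0.000206). Rpn11, the deubiquitinase of the lid, differed by -0.93 ± 0.17. Counts were 14 with the block, 10 without r4 replicate 63 and 6 with libraries 52 to 54 as the only cg libraries, and after other scalings 13 to 16.

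Among cytosolic ribosomal proteins, 37 of 80 tested were lower and 0 higher, with a median of -0.49. RpL23 stood at 67.2 to 88.5 in libraries 19 to 21, 179 to 211 in libraries 52 to 54 and 396, 433 and 448 in r4 (-1.82 ± 0.33, limma adjusted p = 0.000207). RpL36 differed by -1.40 and RpS3 by -1.23. The count was 21 with the block, 18 without r4 replicate 63 and 13 with libraries 52 to 54 alone, and quantile normalization gave 28 lower and 2 higher. The 13 of 80 was near the share over all genes in that fit, 379 lower of 2636. Mitochondrial ribosomal proteins had 6 lower and 1 higher of 15 tested, and their lower calls fell to 2 with the block and 3 without r4 replicate 63.

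**Figure D4:**
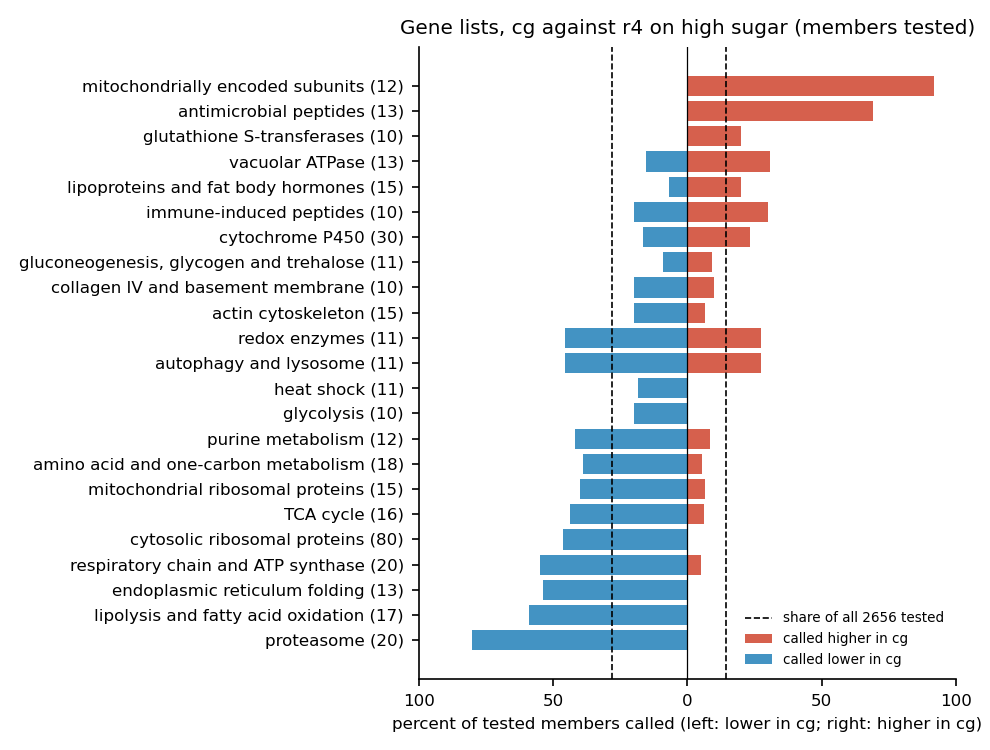
The percentage of the tested members of each list that were called lower (left) or higher (right) in cg, with the number tested in parentheses. Dashed lines mark the shares over all genes tested, 28.1% lower and 14.5% higher.

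Of the enzymes that supply NADPH, by the pentose phosphate pathway, malic enzyme and cytosolic isocitrate dehydrogenase, 7 of 8 were lower and 0 higher, with a median of -0.995. Men, malic enzyme, ranged from 1.70 to 9.65 in cg and stood at 14.6, 14.8 and 15.04 in r4 (-1.42 ± 0.30, limma adjusted p = 0.000808). Pgd ranged from 0.969 to 3.79 against 5.94, 7.22 and 7.61 (-1.28 ± 0.24, limma adjusted p = 0.000324), and Idh differed by -1.21 ± 0.24. Zw, which catalyses the first step of the pathway, was among the lower calls at -0.34. The count was 4 with the block and without r4 replicate 63, and 3 lower and 1 higher with libraries 52 to 54 alone.

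In lipolysis and fatty acid oxidation 10 of 17 were lower and 0 higher, with a median of -0.67. The calls included scu (-1.24 ± 0.26, limma adjusted p = 0.000817) and Arc42 (-1.24 ± 0.26, limma adjusted p = 0.000718) of the mitochondrial chain and CG3415 (Mfe2, -1.08 ± 0.21) of the peroxisomal chain. The lipase gene bmm, at 0.42, and the carnitine palmitoyltransferase gene CPTI, at 0.22, were not called. Counts were 5 with the block, 4 without r4 replicate 63, 6 without r4 replicate 62 and 6 lower and 1 higher without cg replicate 21, and 3 lower and 1 higher with libraries 52 to 54 alone. Enzymes of lipid synthesis mostly did not pass. In fatty acid synthesis only AcCoAS, which makes acetyl-CoA from acetate, was called of 5 (-1.36 ± 0.26, limma adjusted p = 0.000366), and CG3523 (FASN1), the fatty acid synthase, differed by -0.02. Of 9 genes of triglyceride synthesis and lipid droplets, CG4729 (0.54) was higher and Lsd-1, a perilipin, lower (-0.57), and both calls were lost without r4 replicate 63 and with the block (adjusted p = 0.221 and 0.197).

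Protein folding in the endoplasmic reticulum had 7 of 13 lower and 0 higher, with a median of -0.67. Xbp1, the transcription factor of the unfolded protein response, stood at 4.38 to 4.77 in libraries 19 to 21, 10 to 11.7 in libraries 52 to 54 and 21.6, 22.8 and 24.5 in r4 (-1.56 ± 0.24, limma adjusted p = 2.99e-05). The chaperone genes Crc (calreticulin) and Gp93 differed by -1.49 and -0.94, while Hsc70-3 (BiP) differed by 0.07 and was not called. The count was 4 with the block and 2 with libraries 52 to 54 alone. Of 11 heat shock genes 2 were lower, Hsp60 (-0.95) and Hsp27 (-1.15), and with the block Hsp27 was not called (adjusted p = 0.0829).

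In central carbon metabolism the TCA cycle had 7 of 16 lower and 1 higher (SdhB -0.87, Scsalpha -1.25, CG7430 -0.64, and Acon 0.69). Glycolysis had 2 of 10 lower, Gapdh1 (-1.11 ± 0.27, limma adjusted p = 0.00229) and Eno (-0.73), and 0 with the block. The Eno call was lost without any 1 library of 19 to 21 or r4 replicate 63 (adjusted p from 0.0693 to 0.183). Of 11 genes of gluconeogenesis, glycogen and trehalose, UGP was higher (0.95 ± 0.18, limma adjusted p = 0.000302) and CG33138 (AGBE), the glycogen branching enzyme, lower (-1.38 ± 0.28, limma adjusted p = 0.00058). Purine metabolism had 5 of 12 lower and 1 higher, with ras at -1.096 and bur at 0.60. Amino acid and one-carbon metabolism had 7 of 18 lower and 1 higher, led by CG3011 (Shmt, -1.72 ± 0.38, limma adjusted p = 0.00123). Without r4 replicate 63 the lower calls fell to 2 in the TCA cycle, 3 in purine metabolism and 4 in amino acid metabolism, and with libraries 52 to 54 alone to 2, 1 and 1. With the block 4, 3 and 5 were lower, and 0, 1 and 0 higher.

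Lysosomal and autophagy genes changed in both directions. Atg4, the protease that processes Atg8, ranged from 0.152 to 0.256 in cg and stood at 3.88, 3.77 and 4.57 in r4 (-2.08 ± 0.13, limma adjusted p = 2.30e-11). Cp1, cathepsin L, ranged from 9.12 to 13.2 against 40.5, 46.7 and 34.8 (-1.80 ± 0.19, limma adjusted p = 2.40e-07), and cathD, cathepsin D, differed by -1.14. CG3305 (Lamp1), a lysosomal membrane protein, was higher in cg, at 9.29 to 23.1 against 7.02, 6.08 and 3.16 (1.29 ± 0.26, limma adjusted p = 0.000603), as was Atg8a itself at 1.06. In all, 3 of 11 were higher and 5 lower. Of 13 vacuolar ATPase subunits, which acidify the lysosome, 4 were higher, with Vha26 at 1.25, and 2 lower. With the block 1 was higher and 1 lower, and without r4 replicate 63 the higher calls fell to 1 in each of these lists.

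Among 15 lipoprotein and hormone genes 4 were called. Ilp6, the insulin-like peptide made by fat body, ranged from 15.6 to 21.96 in cg and stood at 11.1, 10.2 and 4.26 in r4 (1.12 ± 0.28, limma adjusted p = 0.00282), and its call was lost without r4 replicate 63 (0.74, adjusted p = 0.0584). CG14375 (CCHa2), a peptide that signals to insulin-producing cells, was lower (-0.81 ± 0.20, limma adjusted p = 0.00326), and egr, a tumour necrosis factor, was higher (0.93). Rfabg was the other call and the only one of the 4 that held with the block (adjusted p = 0.0650 for Ilp6, 0.0739 for CG14375 and 0.113 for egr). With libraries 52 to 54 alone 7 were higher and 0 lower. Of 5 genes of insulin, FOXO and TOR signalling, Thor and foxo (0.36) were higher, and with the block neither was called (adjusted p = 0.0566 for Thor and 0.202 for foxo). The foxo call was also lost without r4 replicate 63. Thor (4E-BP), a target of FOXO that restrains translation, ranged from 127 to 234 against 106, 90.1 and 71.97 (1.104 ± 0.30, limma adjusted p = 0.00558). Of 5 genes of sugar sensing, dmondo (0.71) and cbt (0.65) were higher and bigmax (-0.57) lower, all by less than 1 log2 unit. Each lost its call without r4 replicate 63 and with the block (adjusted p from 0.0595 to 0.226).

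In detoxification and redox lists the calls were mixed. Of 30 cytochrome P450 genes 7 were higher and 5 lower, with Cyp309a1 at -2.11 ± 0.24 (limma adjusted p = 7.05e-07) and Cyp6d5 at 1.22, against 3 higher and 4 lower with the block. Of 10 glutathione S-transferases 2 were higher, GstD10 (1.44 ± 0.26, limma adjusted p = 0.000199) and GstE1 (0.78). Redox enzymes had 3 of 11 higher, led by Prx2540-1 (1.34), and 5 lower, led by Txl (-0.86). With the block 1 was higher and 3 lower, and with libraries 52 to 54 alone 3 higher and 1 lower. Of 8 odorant-binding proteins tested, Obp99b and Obp99c were lower (-1.18 and -1.43); Obp99b stood at 2483 to 4848 in cg against 6514, 7513 and 8716. Serpins, which inhibit proteases, had 3 of 7 lower (Spn27A -1.17), against 1 with the block and without r4 replicate 63, and 0 lower and 2 higher with libraries 52 to 54 alone. Ecdysone-responsive genes had 2 of 8 lower (Eip55E -1.15 and Eip71CD -0.93, the latter with an adjusted p of 0.0502 with the block). Actin and its regulators had 1 of 15 higher and 3 lower, with Sop2, an Arp2/3 subunit, at -1.23, against 0 and 2 with the block. The peptidoglycan recognition proteins had PGRP-SB1 higher (0.98) and PGRP-SC2 lower of 6, and the former lost its call without cg replicate 21 or 53 or r4 replicate 61 or 62, and with the block (adjusted p = 0.256). Of 5 genes of RNA interference AGO2 was higher (0.55), a call lost without r4 replicate 62 or 63 and with the block (adjusted p = 0.153).

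Haemocyte markers were also measured, since the cg driver is active in those cells too. Whether driver activity bears on their levels was not tested. Their 10 genes summed to 26.9 to 83.9 in cg and 166 to 260 in r4, nearly all of it Nplp2, at 20.8 to 80.9 and 254, 207 and 161 (-2.39 ± 0.64, limma adjusted p = 0.00468, and 0.0912 with the block). Pxn, a peroxidase of haemocytes and basement membrane, was lower in cg (-2.01 ± 0.31, limma adjusted p = 3.44e-05), and the scavenger receptor crq was higher (0.79 ± 0.15). The other 2 of the 5 tested were not called, and the median of the 5 was 0.01 log2 units. On the control diet the 10 markers summed to 33.0 to 344 in cg and 34.2 to 119 in r4, with 1 called higher in cg and 0 lower. Hml, nimC1, eater, Sr-CI and He were too low to test. Among basement membrane genes, trol (perlecan) was higher (1.37, adjusted p = 0.0565 with the block) and Ndg (nidogen) lower (-0.52). The ecdysone synthesis gene sad of the ring gland was lower (-1.55). It stood at 0 to 0.0577 in cg, 0.782 to 3.47 in r4 and 23.4 to 45.2 in the 60100 larvae with r4. All 5 ring gland markers together summed to 0.00546 to 1.15 in cg and 1.19 to 3.47 in r4. Of these, 3 were at 0 in all r4 libraries, while none was at 0 in all cg libraries. Of muscle genes Act57B (-1.16, lost without r4 replicate 63) and up (-1.25) were lower, neither of them with the block (adjusted p = 0.0706 and 0.0954).

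The same drivers on the control diet, in other libraries of the same sets, gave 1083 calls (40.8%), 483 higher in cg (18.2%) and 600 lower (22.6%). Without r4 control replicate 57 there were 635 calls. A difference between sets would recur on both diets, so driver and set cannot be told apart by the calls they share. Of the genes higher on high sugar 261 were also higher on the control diet, which is 67.6% of the high-sugar calls and 54% of the control calls. Of those lower, 446 were shared, 59.7% and 74.3%. No gene was higher in cg on high sugar and lower on control, and 5 were lower on high sugar and higher on control. Rfabg (2.79), Xbp1 (-1.35), Crc (-1.76) and Atg4 (-1.66) were called in the same direction on the control diet. Lsp1alpha (1.05 ± 0.44, limma adjusted p = 0.0578) and AttC (1.16, limma adjusted p = 0.0897) did not pass there.

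Whether the driver difference depends on diet was tested as an interaction, since every set holds both diets. It passed for 57 genes (2.15%), 3 positive and 54 negative. Of the 54, 41 were called lower in cg on high sugar and 18 higher in cg on the control diet. The strongest was CoII, whose mean was 267 in cg and 5.05 in r4 on the control diet (5.49) and which was not called on high sugar (interaction -4.62 ± 0.53, limma adjusted p = 2.31e-05). CoI was the same kind, with 486 and 11.9 on the control diet (5.32) and an interaction of -2.75 (limma adjusted p = 0.000501). In both genes the r4 libraries lay higher on high sugar than on the control diet, while the cg libraries of both diets overlapped. The other 10 mitochondrial genes tested did not pass.

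Several genes that were lower in cg than in r4 on high sugar differed less, or in the other direction, on the control diet. Arc2, a capsid-like protein related to retrotransposon Gag, was at 0 in 5 cg libraries and at 0.366 in replicate 54, and stood at 2.62, 2.50 and 2.54 in r4 (-1.75 ± 0.12). Its means on the control diet were 0.410 and 0.936 (interaction -1.30, limma adjusted p = 9.57e-05). CG4325 ranged from 3.62 to 4.75 in cg and stood at 15.5, 19.3 and 13.97 in r4, against means of 7.48 and 9.63 on the control diet (interaction -1.33, limma adjusted p = 9.57e-05). CG14752 (-2.19), 7B2 (-1.95), Inos (-1.74), inx7 (-1.24) and white (-0.69) passed in the same direction. Ufd1-like, a cofactor of a protein-unfolding ATPase, stood at 0.0265 to 2.07 in cg and 3.62, 2.95 and 3.79 in r4, with control means of 0.408 and 0.00894 (interaction -2.14, limma adjusted p = 0.00125).

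**Figure D5:**
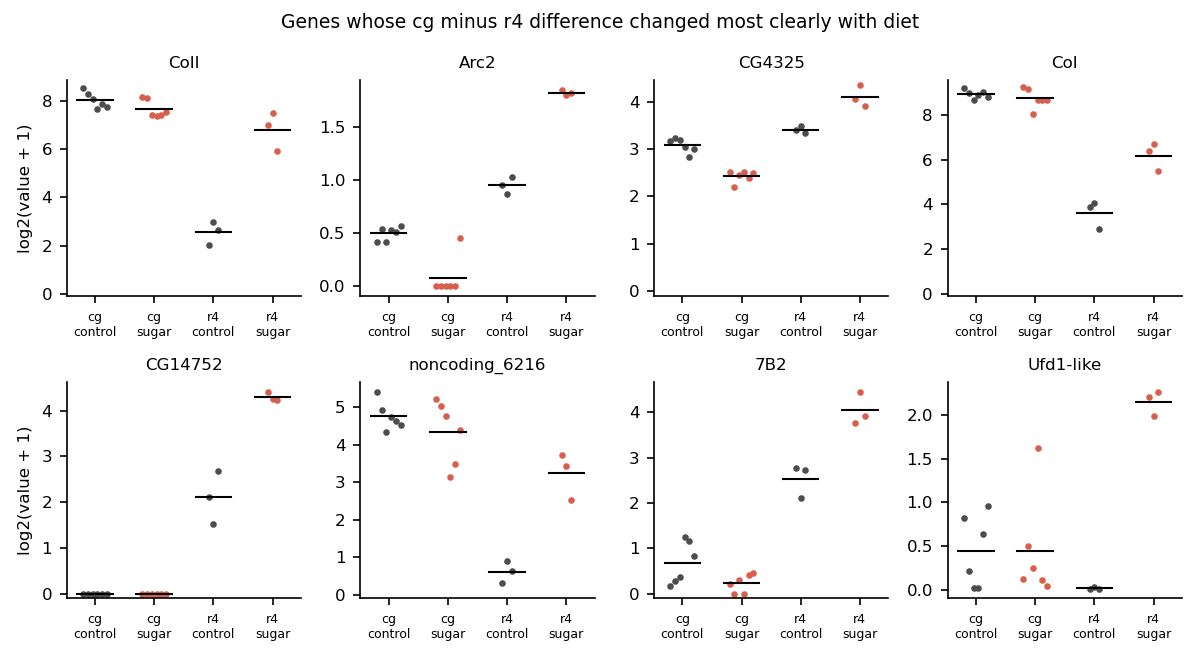
Values of w1118 libraries, as log2(value + 1), for the 8 genes with the smallest adjusted p for the interaction of driver and diet; points are libraries and bars are group means. In CoII, CoI and noncoding_6216 the r4 libraries lie far below cg on the control diet and nearer to it on high sugar, and in the other 5 the r4 libraries lie above cg on high sugar.

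The 5 genes called in opposite directions, picked out after their values were seen, were CG15068, MtnA, Sod, CoVa and CG13779 (Sem1). MtnA, a metallothionein, had means of 5.98 in cg and 15.3 in r4 on high sugar and 45.3 and 12.3 on the control diet (interaction -3.11, limma adjusted p = 0.00837). Sod, cytosolic superoxide dismutase, had 16.4 and 25.8 on high sugar and 16.9 and 12.1 on control (interaction -1.09, limma adjusted p = 0.0181). CoVa, a nuclear-encoded subunit of cytochrome c oxidase, was at 17.4 in r4 replicate 63 and at 3.80 and 2.57 in the other r4 libraries. The 3 positive genes, also picked out afterwards, were CG7997 (2.44), mod(mdg4) (0.95) and CG4844 (1.24). The count of 57 fell to 24 without r4 high-sugar replicate 62, 35 without 61, and 34 and 36 without r4 control replicates 56 and 57. It rose to 121 with the set as a block, 223 with 1 mean for each set and diet and 188 in a robust fit with array weights.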

How the data were processed

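Fat body RNA was sequenced on an Illumina instrument after ribosomal RNA depletion, per the labels' protocols. TopHat 1.3.2, Bowtie 0.12.7 and Cufflinks 1.1.0 and the build dm3 are listed in the submitters' processing notes. Which filters and annotation were used is not given there. Each deposited value is a ratio: the authors divided a per-length expression value by its library's upper quartile, taken over features that differ between library sets. This unit was read from the values, since an FPKM-like unit had been assumed. Depth is unknown, so no counting intervals are given. Each library was rescaled to the 75th percentile over 10094 features above 0 in any of 26 libraries.

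On the log2(value + 1) scale of these rescaled values, limma 3.58.1 was fitted to 2656 features whose mean reached 1 (18.1% of 14659) (empirical Bayes with a trend, R 4.3.3), as 6 group means over 26 libraries, two-sided, with Benjamini-Hochberg adjustment at 0.05. Errors beside log2 differences are limma's SE. Set contrasts used 10 means. The direction rule removed no call. The fit was tested on simulated data that held no differences between library sets, so that test does not bear on p-values where sets differ. The members and gene lists were chosen with earlier results of these data known. Symbols are those of the table, with RefSeq symbols in parentheses (13055 features matched); RefSeq's build differs from dm3, so only chromosome arms are taken from it.

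Named genes were the driver checks, the 12 largest differences each way among calls without overlap and a group mean of at least 5, up to 3 called members per list with the smallest adjusted p and up to 2 central members without a call, the 8 smallest adjusted p of the interaction, and up to 10 calls at 0 throughout 1 driver. Some genes that the rule names are not reported here. Mitochondrial and chromosome 4 genes, and list members named beyond this rule, were added after values had been seen. Alternatives were unfiltered values, a minimum mean of 5, a pseudocount of 0.1, the deposited scale, median-of-ratios and quantile scaling, an upper quartile over the 9 libraries' features, no trend, robust fits with array weights, 10 means, a correlated block, the 9 libraries alone, each cg set alone, each cg set having to pass, and leaving out each replicate.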

Additional observations from a re-analysis of the deposited data

Results flagged for a closer look

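In 131 named genes the 6 cg libraries on high sugar were checked for a library far from the others. Dixon's criterion was used (a gap above 0.625 of the range), which chance passes in about 1 in 20 groups of independent, normally distributed values. The 6 libraries come from separate sets that differ and some genes are near-identical copies, so this rate need not hold here. The criterion was passed in 15. Replicate 53 stood high in 7 of them, mostly immune genes: AttC (63.5), AttB (63.2), CecC (35.7), CecA1 (35.65), PGRP-SB1 (26.6), PGRP-SC2 (2.29) and mRpL28 (1.67). Replicate 21 stood low in 3 mitochondrial genes, ATPase6 (25.9), ND1 (20.4) and ND5 (9.14). The others were Pcp in replicate 19 (3.71), sad in replicate 20 (0.0577), Ufd1-like in replicate 52 (2.07), and TotC (8.28) and Arc2 (0.366) in replicate 54.

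For 15 named genes the difference between drivers itself differed between the diets, by limma's interaction of driver and diet. The interactions, in log2 units, were -4.62 for CoII, -3.05 for noncoding_6216, -2.86 for CG15068, -2.75 for CoI, -2.19 for CG14752, -2.14 for Ufd1-like, -1.95 for 7B2, -1.74 for Inos, -1.33 for CG4325, -1.30 for Arc2, -1.24 for inx7, -1.22 for CG34194, -0.81 for Ser7, -0.69 for white and 2.44 for CG7997.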

How the results depend on the processing

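The 1133 calls on high sugar became 2303 with no filter on low values, 396 at a mean of at least 5, 567 with the set as a block, 698 with libraries 52 to 54 as the only cg libraries and 723 with each cg set passing alone, and ran from 705 to 1229 on leaving out 1 library. The share higher in cg, 34.1%, rose to 50.3% with no filter and 45.7% with libraries 52 to 54 alone. The 57 interaction calls became 197 with no filter (61.4% positive, against 5.3%), 29 at a mean of at least 5, 188 in a robust fit with array weights, 223 with 10 means (17.5% positive) and 121 with the block, were 15.6% positive after quantile normalization, and ran from 24 to 62 on leaving out 1 library. The 1083 control-diet calls became 2707 with no filter, 367 at a mean of at least 5 and 485 with the block, and ran from 635 to 1167 (44.6% higher, or 54.4% with median-of-ratios scaling). The 1419 differences between the cg sets became 3037 with no filter and 506 at a mean of at least 5 and ran from 1158 to 1305 (33.3% higher in libraries 19 to 21, or 58.2% on the deposited scale, 53.3% with median-of-ratios scaling and 50.1% with no filter). Of 130 called named genes 83 were called in every alternative fit that tested them, so a gene removed by a filter could not fail there. The rule that each cg set pass alone was not part of that count. In all, 1 value, Lsp2, reversed (0.17 after quantile normalization). The cause of these changes was not tested, beyond the number of features or libraries each setting leaves. List medians near 0 (storage proteins, cytochrome P450, eye pigment, fatty acid and triglyceride synthesis, haemocyte, peptidoglycan recognition) changed sign between scales. No paired analysis was possible because the groups share no replicate numbers; the set, which holds both diets, entered as the block or the 10 means instead. Depth is unknown, so low values carry no counting error.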
